A study of Mus musculus with 8 samples.

Results

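The enteric nervous system is the network of neurons and glia that lies in the gut wall, in a myenteric plexus between the muscle layers and a submucosal plexus beneath the mucosa. It moves the gut and steers secretion and blood flow without orders from the brain, and its fibres reach into the villi. Its markers were followed here in jejunal mucosa. They are 8 genes chosen by name. Uchl1, Elavl4, Tubb3, Ret and Vip mark neurons, and S100b, Sox10 and Gfap mark glia. All 8 were matched to an identifier among the 56980 genes counted.

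RNA sequencing was performed on jejunal mucosal scrapings of 4 FFA2 fl/fl mice and 4 Adipoq-F2-KO mice. Both groups were male littermates that carried the floxed allele of the short chain fatty acid receptor FFA2. The Adipoq-F2-KO mice also carried an Adiponectin-Cre transgene, which is active in adipocytes, so no cell of the gut wall was the intended target of the deletion. Mice were co-housed on chow from birth, and from 12 weeks of age all of them received a Western diet with 10% fructooligosaccharides for 2 weeks in thermoneutral housing. The FFA2 fl/fl mice are called floxed below, and libraries are named by group and sample number.

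Total counts ran from 6007654 to 21712776 per library. Floxed 3, Adipoq-F2-KO 3 and Adipoq-F2-KO 4 were shallow, with at most 6541595, and the 5 deep libraries had at least 15204995. The scrapings held jejunal epithelium. The 8 epithelial markers, led by the sugar-digesting enzyme Sis, together took 29222 to 35149 CPM (counts scaled to a common library total). Muscle content differed widely between libraries. Myh11, the heavy chain of smooth muscle myosin, had 771 CPM in floxed 3, 288 in Adipoq-F2-KO 4, 134 in floxed 2, 123 in Adipoq-F2-KO 2, 61.6 in Adipoq-F2-KO 3, 12.0 in Adipoq-F2-KO 1, 6.85 in floxed 4 and 5.61 in floxed 1. The high and low libraries lay in both genotypes. In bulk tissue, fewer cells of a type and less RNA per cell cannot be told apart.

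Of the 8 markers, 2 were counted well in every library and the other 6 were close to the limit of detection. Detection was set at more than 3 raw counts, a floor that equals 0.138 CPM in the deepest library and 0.499 in the shallowest. Ret and Tubb3 were above it in 8 of 8 libraries, S100b in 6, Uchl1, Elavl4 and Vip in 4 each, Sox10 in 3 and Gfap in 0. Divided by exon length to compare genes, the level in size-factor normalized counts per kilobase was 15.5 ± 8.82 for Tubb3 and 12.5 ± 4.21 for Ret (SD, n = 8 libraries). Uchl1 followed with 4.86 ± 6.96, S100b with 3.73 ± 0.708, Vip with 1.73 ± 1.91, Elavl4 with 1.71 ± 2.69, Sox10 with 1.48 ± 1.94 and Gfap with 0.333 ± 0.408 (SD, n = 8). Tubb3 and Ret differed by less than the SD of either gene, and so did Vip and Elavl4, and Elavl4 and Sox10. Uchl1 and S100b differed by less than the SD of Uchl1 but by more than that of S100b. The steps from Ret to Uchl1 and from S100b to Vip were larger than the SD of either gene, and that from Sox10 to Gfap was not.

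**Figure D1:**
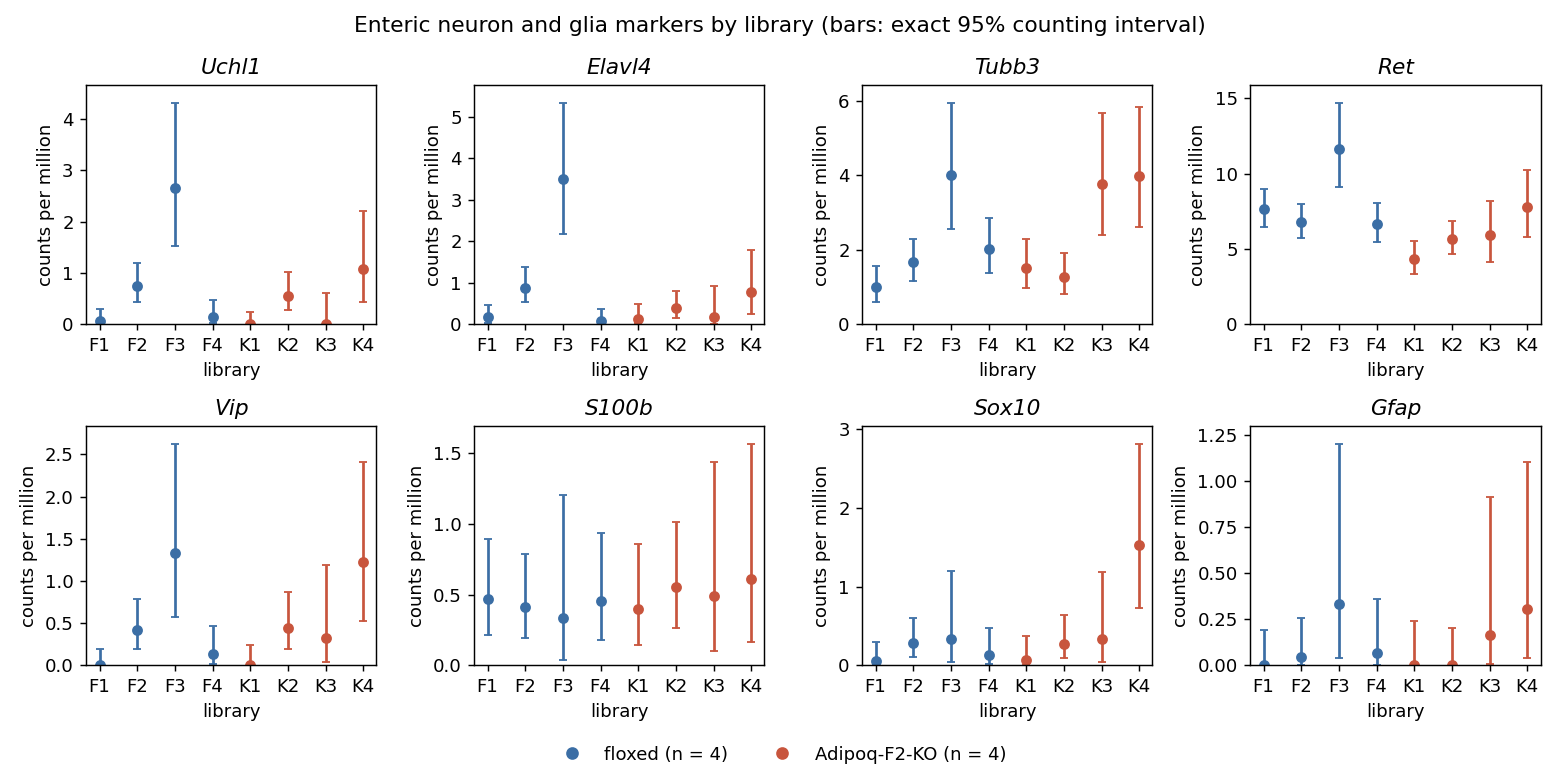
CPM of the 8 markers in each library (F1 to F4 floxed, K1 to K4 Adipoq-F2-KO), with the exact 95% counting interval as bars. Uchl1, Elavl4, Tubb3, Ret, Vip and Gfap were highest in floxed 3, S100b and Sox10 in Adipoq-F2-KO 4, and S100b lay between 0.333 and 0.611 throughout.

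The neuronal markers Uchl1, Elavl4 and Vip passed the floor in the same 4 libraries. Uchl1 (ENSMUSG00000029223, chromosome 5, 66676091 to 66687234, plus strand of GRCm38) encodes a ubiquitin hydrolase that is abundant in neuronal cytoplasm. An antisense gene that shares exons with it, Uchl1os, had 1 count in all. Uchl1 was read 1, 16, 16 and 2 times across floxed 1 to 4. Adipoq-F2-KO 1 to 4 gave 0, 10, 0 and 7 reads. It was therefore over the floor in floxed 2 and 3 and in Adipoq-F2-KO 2 and 4 alone. The highest level was 2.66 CPM in floxed 3 (exact 95% binomial interval 1.52 to 4.32). In Adipoq-F2-KO 3, with 0 counts, the interval reached up to 0.604 and the floor stood at 0.492 CPM, and in Adipoq-F2-KO 1 they were 0.243 and 0.197.

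Elavl4 (ENSMUSG00000028546, chromosome 4, 110203722 to 110351909, minus strand), the neuronal RNA-binding protein HuD, was read 3, 19, 21 and 1 times across floxed 1 to 4. Adipoq-F2-KO 1 to 4 gave 2, 7, 1 and 5 reads. The 4 libraries over the floor were again floxed 2 and 3 and Adipoq-F2-KO 2 and 4. The level in Adipoq-F2-KO 2, 0.386 CPM, lay below the floor of 0.492 that applied to the shallow Adipoq-F2-KO 3. In CPM, floxed 3 held 3.50 (2.16 to 5.34), clear of the interval of floxed 2 at 0.875 (0.527 to 1.37) and of Adipoq-F2-KO 4 at 0.764 (0.248 to 1.78).

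Vip (ENSMUSG00000019772, chromosome 10, 5639218 to 5647617, plus strand) encodes vasoactive intestinal peptide, a transmitter of inhibitory motor neurons and of secretomotor neurons. Floxed 1 to 4 gave 0, 9, 8 and 2 reads of it, and Adipoq-F2-KO 1 to 4 gave 0, 8, 2 and 8. It was over the floor in the same 4 libraries, with 1.33 CPM in floxed 3 (0.575 to 2.62) and 1.22 in Adipoq-F2-KO 4 (0.528 to 2.41). Vip was 0.415 in floxed 2 and 0.441 in Adipoq-F2-KO 2, both below the floor of 0.492 that applied to Adipoq-F2-KO 3. In that shallow library Vip had 0.328 CPM (0.0397 to 1.18), an interval that covered both levels. In floxed 1 and Adipoq-F2-KO 1 it was at 0, where 3 counts would be 0.157 and 0.197 CPM.

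These 4 libraries were also the 4 with the most Myh11. At all 3 genes they ranked above the other 4 libraries, an order that 3.93% of the 15986 tested genes shared. The order of libraries was looked up after the values were seen and is given as a description. Uchl1, Elavl4 and Vip together gave 45 counts in floxed 3, 44 in floxed 2, 25 in Adipoq-F2-KO 2 and 20 in Adipoq-F2-KO 4, against 2 to 5 in the other libraries. Set against Myh11 in the same library, this was 9.72 counts per 1000 Myh11 counts in floxed 3 (exact 95% interval 7.08 to 13.03), 15.1 in floxed 2 (10.95 to 20.3), 11.2 in Adipoq-F2-KO 2 (7.23 to 16.6) and 10.6 in Adipoq-F2-KO 4 (6.47 to 16.5). In Adipoq-F2-KO 1 and 3 the ratios were 10.9 (1.31 to 40.0) and 7.98 (1.64 to 23.5). In floxed 1 and 4 they were 37.4 (10.0 to 98.5) and 47.2 (15.01 to 114), from 4 and 5 counts. The interval of floxed 4 did not overlap that of floxed 3. Intervals cover counting error only, since the reads carried no molecular identifiers.

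**Figure D2:**
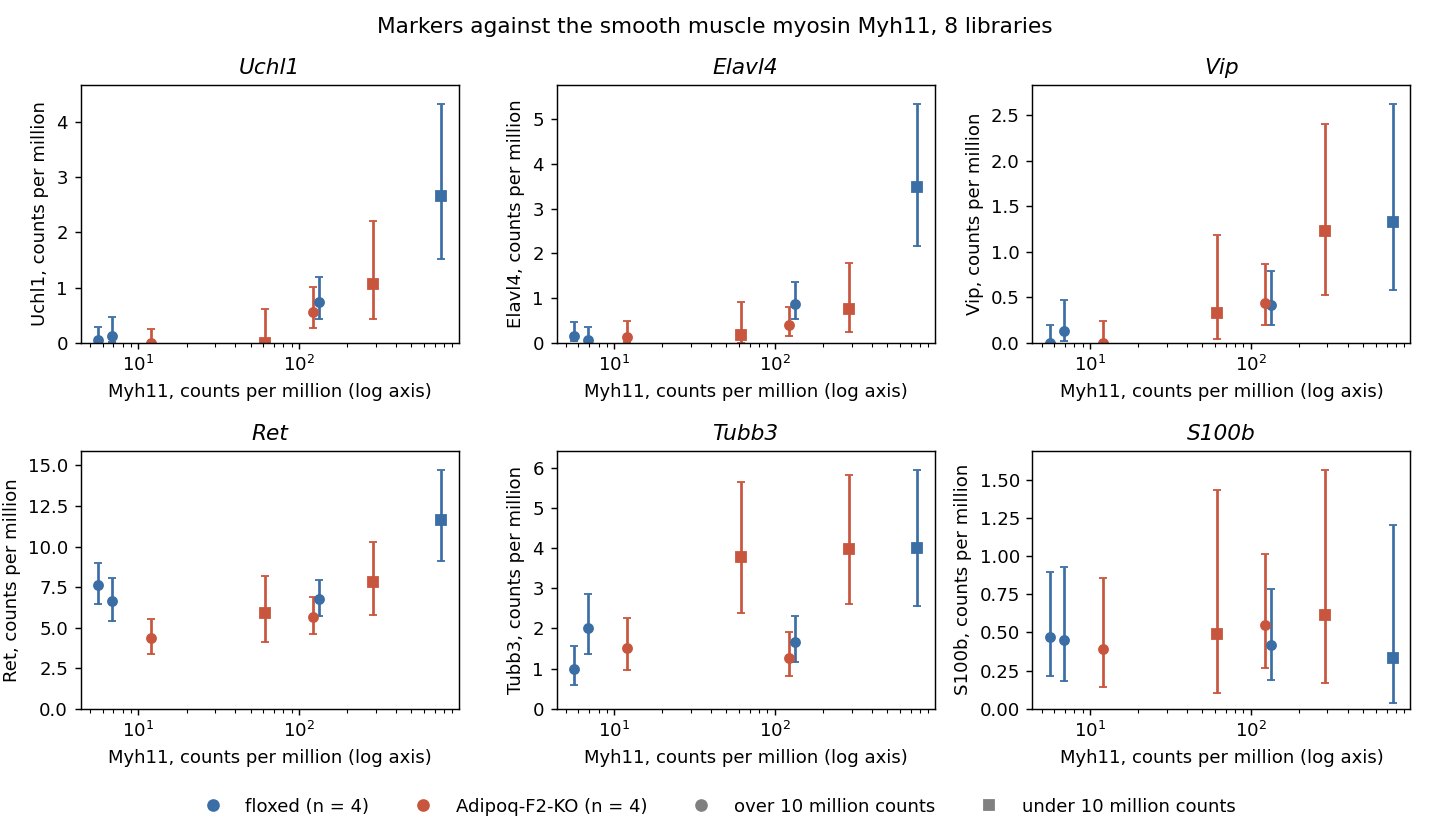
CPM of 6 markers against those of Myh11 in the 8 libraries, with exact 95% counting intervals as bars, a log horizontal axis, and squares for the 3 shallow libraries. Uchl1, Elavl4 and Vip were highest in the 4 libraries with the most Myh11, Tubb3 was highest in the 3 squares, and S100b stayed between 0.333 and 0.611.

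The promoters of these 3 genes, which had the same 4 highest libraries, are shown beside that of S100b, which did not. Each window runs from 250 bases before to 50 bases after a RefSeq start on GRCm38.p6, and for Elavl4 it is the start that lies 2 bases from the GENCODE one. Capitals mark matches, on either strand, to 5 searched motifs that do not overlap here, namely a SOX-type motif (ACAAAG), a second motif of that type (AACAAT), a homeodomain-type motif (TAATTA), an E-box (CAGCTG) and a cyclic AMP response type motif (TGACGT).
Uchl1 promoter, chr5:66675871-66676170, plus strand: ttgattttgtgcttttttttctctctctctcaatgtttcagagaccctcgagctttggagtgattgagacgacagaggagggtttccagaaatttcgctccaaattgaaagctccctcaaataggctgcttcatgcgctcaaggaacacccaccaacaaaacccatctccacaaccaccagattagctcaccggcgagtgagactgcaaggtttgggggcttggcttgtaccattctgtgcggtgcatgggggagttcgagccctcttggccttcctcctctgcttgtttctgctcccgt
Elavl4 promoter, chr4:110351862-110352161, minus strand: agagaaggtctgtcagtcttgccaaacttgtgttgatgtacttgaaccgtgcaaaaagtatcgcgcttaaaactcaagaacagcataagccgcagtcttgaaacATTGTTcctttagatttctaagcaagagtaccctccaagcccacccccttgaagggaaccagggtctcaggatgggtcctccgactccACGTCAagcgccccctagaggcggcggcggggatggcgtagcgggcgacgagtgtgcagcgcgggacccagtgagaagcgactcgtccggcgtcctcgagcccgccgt
Vip promoter, chr10:5638968-5639267, plus strand: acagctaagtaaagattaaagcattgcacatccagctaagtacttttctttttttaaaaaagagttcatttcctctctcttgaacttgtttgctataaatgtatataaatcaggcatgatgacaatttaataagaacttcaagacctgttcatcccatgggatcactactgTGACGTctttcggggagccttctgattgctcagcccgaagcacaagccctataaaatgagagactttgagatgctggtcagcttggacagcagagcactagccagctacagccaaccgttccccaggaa
S100b promoter, chr10:76253586-76253885, plus strand: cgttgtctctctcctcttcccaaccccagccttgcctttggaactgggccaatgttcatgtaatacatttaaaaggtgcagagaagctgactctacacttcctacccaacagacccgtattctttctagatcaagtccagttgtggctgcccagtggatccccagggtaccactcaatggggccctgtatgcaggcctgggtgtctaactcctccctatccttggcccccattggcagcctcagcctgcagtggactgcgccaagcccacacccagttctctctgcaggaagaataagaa
TGACGT was found in the Elavl4 window on the strand opposite to the printed one, starting 58 bases before the start, and in the Vip window on the printed strand, 79 bases before it. It was present in 7.51% of all 32851 promoter windows. The Elavl4 window also held AACAAT on the opposite strand, which 10.7% of windows held. None of the 5 motifs was found in the Uchl1 or S100b window, and the first SOX-type motif, the E-box and the homeodomain-type motif, present in 18.7%, 16.3% and 5.29% of windows, were in none of the 4 windows printed. Elavl4 has 3 other RefSeq starts, and 2 of their windows, which overlap, held both the E-box and the homeodomain-type motif. The GC content was 50.7% for Uchl1, 57% for Elavl4, 41.7% for Vip and 53.7% for S100b, with a median of 52.7% over all windows. A match describes letters and is no evidence of binding.

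Ret, the receptor tyrosine kinase that carries the signal of glial cell line-derived neurotrophic factor and without which the enteric nervous system does not form, behaved otherwise. It (ENSMUSG00000030110) lies on GRCm38 chromosome 6, from 118151745 to 118197718 on the minus strand, and no other annotated gene overlaps it. Floxed 1 to 4 gave 146, 147, 70 and 103 reads, and Adipoq-F2-KO 1 to 4 gave 66, 103, 36 and 51. In CPM this was 7.65, 6.77, 11.7 and 6.66 for floxed and 4.34, 5.67, 5.90 and 7.80 for Adipoq-F2-KO. Floxed 3 was again the highest, but floxed 1, with hardly any Myh11, held more Ret than floxed 2 and Adipoq-F2-KO 2. Counts per 1000 Myh11 counts ran from 15.1 in floxed 3 to 1364 in floxed 1. Ret is also known from gut lymphoid cells and from endocrine cells, so it does not count neurons alone.

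The 5 tested genes most like Ret over the 8 libraries, ranked by Pearson's r of log2(normalized count + 1) among 10168 tested genes with a mean of at least 50, were Pclo (r = 0.979), Tmem35b (0.940), Gnao1 (0.935), Zfp664 (0.935) and Usp54 (0.926). Pclo encodes a scaffold of the presynaptic zone and Gnao1 a G protein subunit of neurons and endocrine cells. The same ranking was made for 6 other markers after their counts were seen. For Elavl4 it gave Adcy5 (0.984), Ppp1r12b (0.983), Pbx3 (0.981), Ttll7 (0.979) and Hspb6 (0.978). For Uchl1 it gave Rin3 (0.972), Oxct1 (0.950), Pbx3 (0.950), Parva (0.944) and Ythdf1 (0.942), and for Vip Ntn1 (0.980), Dgkb (0.979), Meg3 (0.965), Atp11a (0.965) and Carmn (0.962). Pbx3 was the 1 gene named for both Elavl4 and Uchl1. The first gene was Bcor (0.986) for Tubb3, Exph5 (0.954) for Sox10 and Tfdp1 (0.935) for S100b. With 8 libraries that differ in depth and tissue content, these values are a ranking and not a test.

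Tubb3, the neuronal class III beta-tubulin, was read 19, 36, 24 and 31 times across floxed 1 to 4. Adipoq-F2-KO 1 to 4 gave 23, 23, 23 and 26 reads. The level in CPM was highest in the 3 shallow libraries, at 3.99 in floxed 3, 3.97 in Adipoq-F2-KO 4 and 3.77 in Adipoq-F2-KO 3. The 5 deep libraries held 0.996 to 2.00 CPM. The 3 shallow libraries were the highest at 4.27% of tested genes. The part of depth in the level of Tubb3 was not tested. Tubb3 (ENSMUSG00000062380) lies on GRCm38 chromosome 8, from 123411424 to 123422015 on the plus strand. It overlaps Gm20388 on that strand without sharing an exon, and belongs to a family of tubulins with near-identical coding sequence. How multi-mapped reads were counted is not given in the sources used here, so its count is uncertain.

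The glial markers were low. S100b, a calcium-binding protein of glia, was read 9, 9, 2 and 7 times across floxed 1 to 4. Adipoq-F2-KO 1 to 4 gave 6, 10, 3 and 4 reads. In normalized counts 3 of 4 Adipoq-F2-KO libraries were above all floxed libraries, and Adipoq-F2-KO 1 lay within the floxed range. For Adipoq-F2-KO 3 and 4 this rested on 3 and 4 counts of S100b. The S100b level of 0.333 to 0.611 CPM was the most even of the 8 markers, with an SD of 0.23 on the log2 scale over 8 libraries against 1.90 for Uchl1. The lowest level, in floxed 3, came from 2 counts, under the floor. Its interval of 0.0403 to 1.20 CPM covered the level in every other library, so the order of libraries was not resolved. S100b (ENSMUSG00000033208, chromosome 10, 76253853 to 76261159, plus strand) overlaps Dip2a on the opposite strand without sharing an exon with it.

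Sox10 (ENSMUSG00000033006, chromosome 15, 79154908 to 79165240, minus strand), the transcription factor of the neural crest and of glia, was read 1, 6, 2 and 2 times across floxed 1 to 4. Adipoq-F2-KO 1 to 4 gave 1, 5, 2 and 10 reads. Adipoq-F2-KO 4 stood highest with 1.53 CPM (0.733 to 2.81), and only floxed 2 and Adipoq-F2-KO 2 were otherwise over the floor. Gfap (ENSMUSG00000020932, chromosome 11, 102887336 to 102900912, minus strand), the intermediate filament of reactive glia, was read 0, 1, 2 and 1 times across floxed 1 to 4. Adipoq-F2-KO 1 to 4 gave 0, 0, 1 and 2 reads. No library passed 3 counts, so no fold change is given.

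The genotype comparison asked whether the markers differed in the jejunum of mice that lacked FFA2 in adipocytes. Over all genes, 0.0375% of the 15986 tested (6 genes) had an adjusted p below 0.05 in DESeq2, 0.0313% being higher in Adipoq-F2-KO and 0.00626% lower. Only Tubb3 and Ret passed the filter of 10 counts in 4 libraries, and 0 of these 2 were called. At an unadjusted p below 0.05 there were also 0 of 2, against 3.03% of tested genes (1.38% lower in Adipoq-F2-KO), and edgeR and limma-voom called 0 of 2 as well. Normalized counts of the genotypes overlapped at both, where 2.12% of tested genes did not overlap.

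Ret had a normalized count of 98.0 ± 32.6 in floxed and 71.0 ± 18.5 in Adipoq-F2-KO libraries (SD, n = 4 each). On the log2 scale Adipoq-F2-KO over floxed came to -0.46 (standard error 0.28, 95% interval -1.01 to 0.09, DESeq2 adjusted p = 0.9998). The normalized count was below all floxed libraries in 3 of 4 Adipoq-F2-KO libraries, and Adipoq-F2-KO 4 lay within the floxed range. The fold change stayed negative in 16 alternatives, from -0.63 without Adipoq-F2-KO 4 to -0.24 without floxed 3 (adjusted p from 0.813 to 0.99999). Floxed 3 had the most Myh11 and was shallow. The value was -0.52 with the smooth muscle level as a covariate and -0.50 in the 5 deep libraries (DESeq2 adjusted p = 0.9998 and 0.857).

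Tubb3 had 26.2 ± 16.8 normalized counts in floxed and 31.8 ± 18.2 in Adipoq-F2-KO libraries (SD, n = 4 each), which is 0.30 on the log2 scale (standard error 0.55, 95% interval -0.77 to 1.37, DESeq2 adjusted p = 0.9998). Its sign turned among the 5 deep libraries (-0.17), and likewise when Adipoq-F2-KO 4 was left out (-0.0019). Leaving out floxed 3 raised it to 0.75.

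The 6 markers under the filter were fitted without it, to show the size of difference that these counts leave possible. The log2 fold change was -1.67 for Elavl4 (standard error 1.07, 95% interval -3.77 to 0.44), -1.15 for Uchl1 (1.31, -3.71 to 1.41), 0.12 for Vip (1.27, -2.37 to 2.62), 0.25 for S100b (0.64, -1.01 to 1.497) and 1.496 for Sox10 (1.06, -0.57 to 3.56). The DESeq2 adjusted p was 0.99998 for each. The value of Elavl4 stayed negative in 15 alternatives, from -2.27 without Adipoq-F2-KO 4 to -0.05 without floxed 3. With all 8 libraries Elavl4 was -0.28 in limma-voom and -0.69 with a replicate block. Uchl1 turned to 0.40 without floxed 3, and was -2.18 without Adipoq-F2-KO 4 and -0.68 without Adipoq-F2-KO 1. Vip turned to -0.32 without floxed 1, to -0.21 without floxed 4 and to -0.85 without Adipoq-F2-KO 4. Without floxed 3 Vip was 1.42. Sox10 moved to 0.18 without Adipoq-F2-KO 4 and to 1.91 without Adipoq-F2-KO 1. In the 5 deep libraries the value was -0.51 for Elavl4, -0.18 for Uchl1, 0.25 for Vip, 0.08 for S100b and 0.15 for Sox10. With all 8 libraries limma-voom gave -0.68 for Uchl1, 0.37 for Vip, 0.22 for S100b and 0.69 for Sox10. In the fit of all 8 libraries with DESeq2 the interval was narrowest for S100b, and those of Uchl1 and Vip held differences of several-fold in either direction.

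**Figure D3:**
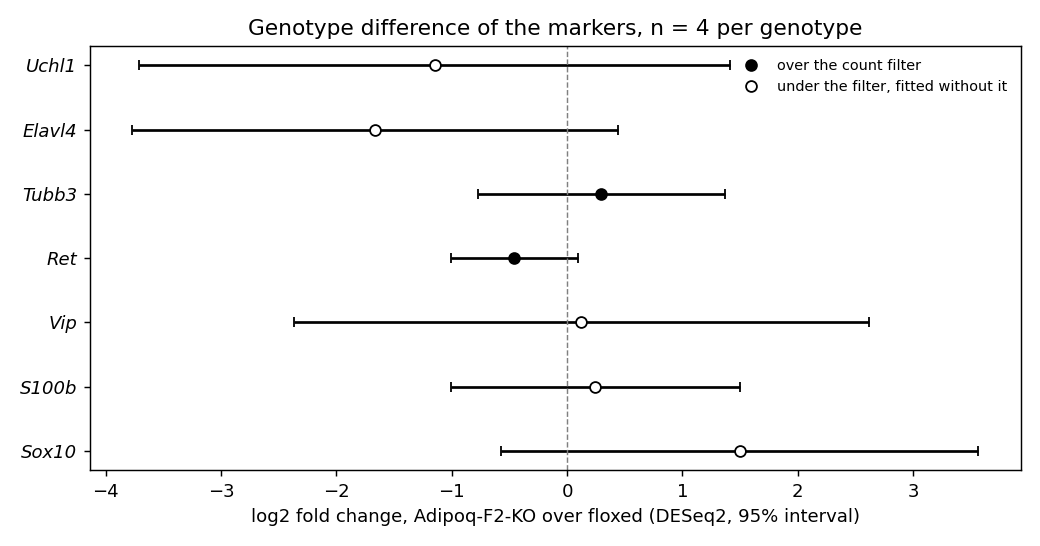
Log2 fold change of Adipoq-F2-KO over floxed for 7 markers with its 95% interval from DESeq2, n = 4 per genotype, with filled points for genes over the count filter and open points for genes fitted without it. All 7 intervals include 0, and that of Ret, from -1.01 to 0.09, is the narrowest.

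Other genes of the enteric nervous system were taken from lists, and of 8 tested among 20 further neuronal genes 0 were called, with a median log2 fold change of -0.19 against -0.01 over all tested genes. In 15 of the 20 the highest library was floxed 3, as in 14.9% of tested genes. Syt1, a calcium sensor of synaptic vesicles, ran from 0.0524 to 3.50 CPM, and Hand2, a transcription factor of enteric neuron and muscle development, from 0.0658 to 5.99. L1cam, an adhesion molecule, was even at 19.3 to 28.0, and it overlaps Arhgap4 on the same strand. The same 4 highest libraries as Myh11 were found for 7 of the 20, among them Syt1, Scg3, Stmn2 and Prph, the last a filament of peripheral neurons. Stmn2 and Prph were chosen after their values were seen.

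Of 18 transmitter and neuropeptide genes, 3 were tested and 0 called (median log2 fold change -0.21), and 6 never passed 3 counts. Nos1, the nitric oxide synthase of inhibitory motor neurons, had 10.3 CPM in floxed 3, 5.35 in Adipoq-F2-KO 4, 2.16 in floxed 2, 1.27 in Adipoq-F2-KO 2 and 1.15 in Adipoq-F2-KO 3, and 0.0658 to 0.129 in the other 3. This is the order of Myh11 in its first 5 places. Chat, the enzyme that makes acetylcholine, ran from 0.492 to 1.22 with Adipoq-F2-KO 4 highest, and Tac1, the substance P precursor, from 1.62 to 2.84 with floxed 4 highest. Neither had the 4 highest libraries of Myh11, which 5 of the 17 transmitter genes with a count had. Chat is also made by tuft cells and Tac1 by enterochromaffin cells.

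Of 13 further glial genes, 6 were tested and 0 called (median 0.08). Erbb3, Pmp22, Mbp and Entpd2 had counts far above any other glial gene, up to 917 CPM for Erbb3, and epithelial cells also express Erbb3. Its genotype difference was 0.41 on the log2 scale, with 0.23 as the standard error (DESeq2 adjusted p = 0.9998). Ngfr, the low-affinity neurotrophin receptor of glia, ran from 0 to 3.83 CPM and Cdh19, a Schwann lineage cadherin chosen after its values were seen, from 0 to 2.66. Ngfr and Cdh19 were the 2 of 13 with the same 4 highest libraries as Myh11.

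Among partners of the markers, Gfra1, the co-receptor through which glial cell line-derived neurotrophic factor reaches Ret, ran from 0 to 4.33 CPM and shared the 4 highest libraries with Myh11. So did Gfra2, and the other 9 of 11 genes of RET and endothelin signalling did not. Edn3, the ligand of the endothelin receptor Ednrb that keeps neural crest cells undifferentiated, ran from 38.3 to 77.6 with floxed 3 highest, and Ednrb from 0.0646 to 5.35. Of 11 genes of RET and endothelin signalling 4 were tested and 0 called (median -0.01). Vipr1, the main receptor of Vip on epithelium, was abundant at 323 to 480 CPM while Vipr2, found more on muscle and nerve, ran from 0.367 to 1.53. Of the 4 genes of VIP and PACAP signalling 2 were tested and 0 called.

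**Figure D4:**
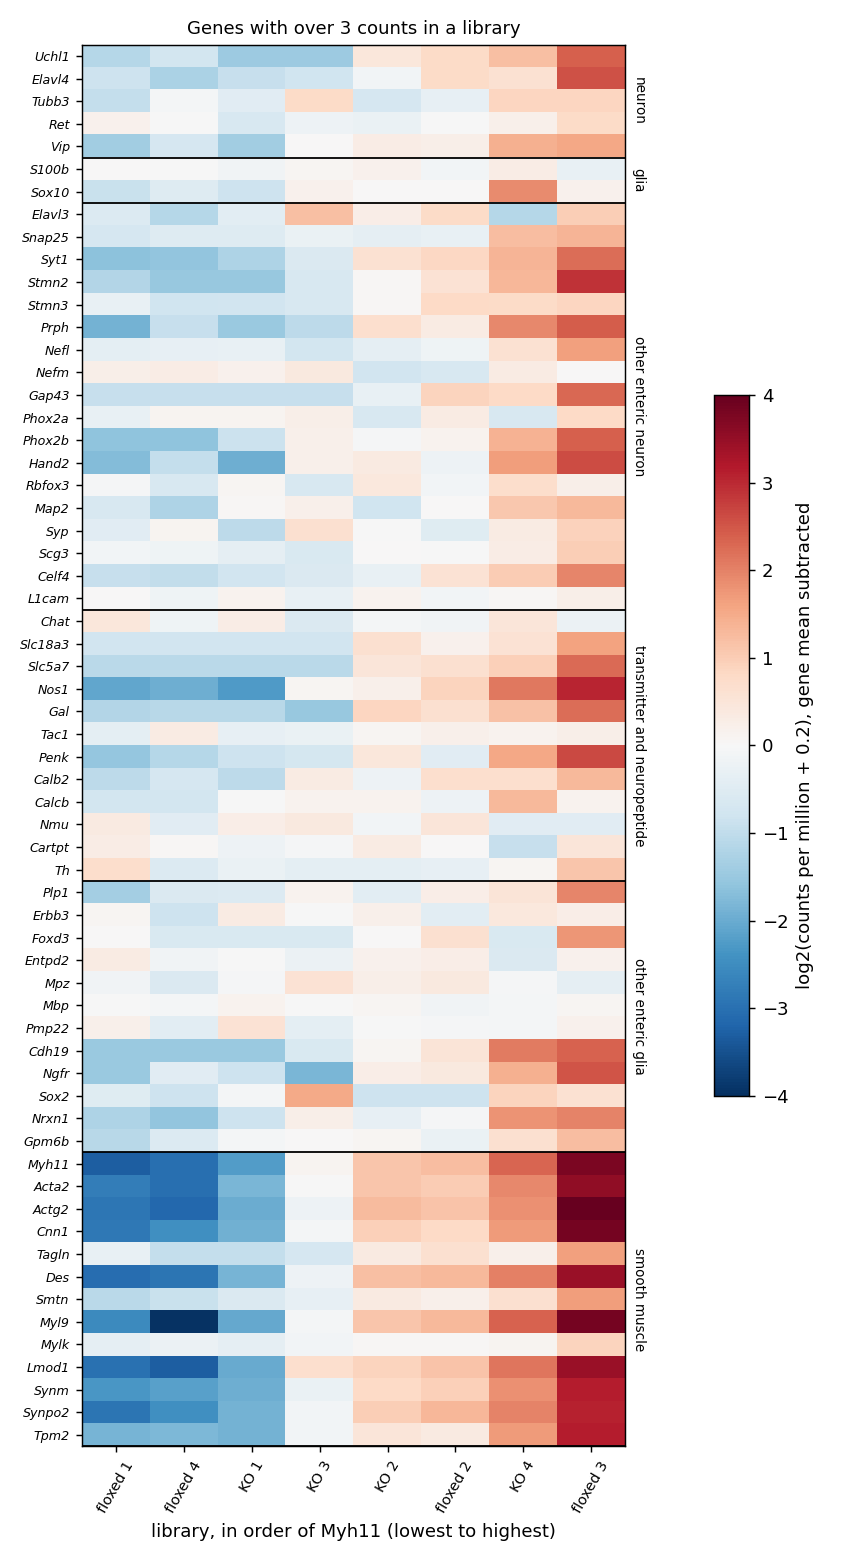
Log2(CPM + 0.2) less the gene's mean, for 62 genes with over 3 counts in at least 1 library, with libraries ordered by Myh11 from floxed 1 to floxed 3. Uchl1, Elavl4, Vip, Syt1, Prph and Nos1 redden to the right, as Myh11 and Actg2 do, whereas Mylk, S100b, Ret, L1cam, Tac1, Erbb3 and Mbp stay paler.

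Other cell types of the scraping were measured alongside. The 13 smooth muscle genes, Myh11 itself among them, all had the same 4 highest libraries. Their summed level was 333 to 793 CPM in 3 floxed libraries, 2793 in floxed 3 and 354 to 1162 in Adipoq-F2-KO. Mylk, the myosin light chain kinase, took 303 CPM of the sum in floxed 1 and varied less than Myh11, with 732 in floxed 3. Of these genes 13 were tested and 0 called (median log2 fold change -0.91). Of 3 genes of the interstitial cells of Cajal, Ano1, a chloride channel, shared that order, and the receptor Kit and the transcription factor Etv1 did not. Of 5 fibroblast genes Lum, Col1a1 and Col3a1 shared it, and 0 of 5 mesothelial genes did. Of 14 enteroendocrine genes, the lineage that shares many neuronal proteins, 0 had that order, and their summed level was 302 to 334 CPM in floxed and 260 to 353 in Adipoq-F2-KO libraries. Of 6 tuft cell genes 0 had it, with sums from 48.7 to 83.5. The innate lymphoid genes Il22, Il23r and Ncr1 never passed 4 counts in any library. With the smooth muscle level as a covariate, and without the count filter, the genotype difference moved on the log2 scale from -1.67 to -0.99 for Elavl4, from -1.15 to -0.69 for Uchl1 and from 0.12 to 0.36 for Vip.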

How the data were processed

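Jejunal mucosa of 4 floxed and 4 Adipoq-F2-KO mice was profiled, and titles gave each sample's group and number. Libraries were poly-A selected, with single reads of 75 bp. The authors trimmed reads with Trimmomatic, aligned them with STAR and counted them per Ensembl gene with featureCounts, and the deposited values are raw read counts, 1 table per library. The submitters' processing notes name GRCm38 and mm10. Versions, annotation release, strand setting and handling of multi-mapped reads are not given in the sources used here. Of 56980 identifiers, 52073 had a GENCODE M21 symbol, and coordinates and exon lengths are from M21 on GRCm38.

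Genes that reached 10 counts in 4 or more libraries entered DESeq2 1.42.0 in R 4.3.3, with genotype as the only term, two-sided, with Benjamini-Hochberg adjustment over 15986 genes. Alternatives were edgeR 4.0.16 (quasi-likelihood), limma-voom 3.58.1, TMM factors, no filter, no Cook filter, a replicate block, a smooth muscle covariate, the 5 deep libraries and each library left out. Scripts were tested on simulated data. Intervals are exact Clopper-Pearson (SciPy 1.17.1), and the count of 3 is a floor for counting error only. Pairs of libraries within a genotype differed by a chi-square of 5.16 to 50.3 per gene, so none was a duplicate.

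All 8 markers were named, and in each other list the genes with the smallest p (up to 3) and the 2 most abundant, although values are given only for some of them. The 5 genes most like Ret were ranked because Ret was the tested neuronal marker with the highest normalized count (not corrected for length), and no glial marker was tested. The members and lists were chosen with earlier results of these data known. The rankings for the other markers and the unfiltered fits under each alternative were added after seeing the data.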

Additional observations from a re-analysis of the deposited data

Results flagged for a closer look

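Ret in the floxed libraries was set apart by 1 sample. The normalized counts were 88.4, 77.5, 146 and 79.7 in floxed 1 to 4, and the gap below floxed 3 was 0.841 of the range, above Dixon's 95% limit for 4 samples. Chance alone marks about 1 in 20 such groups. Floxed 3 also had the most Myh11, at 771 CPM, and the fewest counts in all.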

How the results depend on the processing

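Of the 2 tested markers 0 were called under any of 16 alternatives. The count of all genes called moved from 6 to 2 with edgeR, 1 with limma-voom, 3 without the filter, 77 in the 5 deep libraries and 2 to 104 when 1 library was left out. The count at an unadjusted p rose from 0 to 1 with the smooth muscle covariate (Ret, log2 fold change -0.52, DESeq2 adjusted p = 0.9998), where 3.24% of all tested genes passed, and lay between 0 and 1 when 1 library was left out, being 1 without Adipoq-F2-KO 4 (2.15% of tested genes). The count of tested markers without overlap was 1 in the 5 deep libraries (3 floxed against 2 Adipoq-F2-KO, where 23.6% of tested genes did not overlap) and 0 to 1 when 1 library was left out, being 1 without Adipoq-F2-KO 4 (3.93% of tested genes). Signs turned for Tubb3 (-0.17 in the 5 deep libraries, -0.0019 to 0.75 when 1 library was left out, lowest without Adipoq-F2-KO 4), for Uchl1 (0.40 without floxed 3) and for Vip (-0.32 without floxed 1, -0.21 without floxed 4, -0.85 without Adipoq-F2-KO 4), and the cause was not tested. The median SD of the 8 markers over libraries was 1.07 on the log2 scale, 1.07 with TMM factors and 0.681 with a pseudocount of 5. With the replicate block 11 genes were called and 0 markers, and Ret had -0.44. Same-numbered libraries correlated at 0.54, 0.29, 0.01 and -0.42 in their deviations from the group means, so the numbers were not taken as pairs, and not every library correlated best with its own number. The 6 markers under the filter had 7 to 59 counts each over all 8 libraries, and for Uchl1, Elavl4, Vip and Sox10 the variance between libraries was 6.54 to 17.1 times that of counting error at their depths (chi-square per degree of freedom).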
